A study of Mus musculus with 4 samples.

Results

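The genes described here encode 10 proteins of the nuclear lamina and the inner nuclear membrane: the lamin B receptor Lbr, the LEM-domain proteins Emd (emerin) and Tmpo (lamina-associated polypeptide 2), the lamins Lmna, Lmnb1 and Lmnb2, the SUN proteins Sun1 and Sun2, and the nesprins Syne1 and Syne2. Their RNA was measured in NIH3T3, an established fibroblast cell line from mouse that the labels also call dermal fibroblasts. Cells were transfected with a control siRNA (siControl, n = 2 arrays) or with an siRNA against Timp1 (siTIMP1, n = 2 arrays). In both groups the siRNA was carried by apatite nanoparticles, which the labels shorten to sCA, and the medium held 2% serum, so both groups share the carrier and the serum level. All probes whose gene name in the array files is one of the 10 were taken, which gave 30 probes on 39 spots, out of 56605 probes for 37074 gene names on the array. The group was chosen by the Lbr signals of these same arrays, which were lower with siTIMP1, so the Lbr values below are a description and carry no test.

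The nuclear lamina is a meshwork of A-type and B-type lamins under the inner nuclear membrane. LBR and the LEM-domain proteins are membrane proteins that tie this meshwork and chromatin to the envelope, and LBR also carries a sterol reductase domain of cholesterol synthesis. SUN proteins of the inner membrane and nesprins of the outer membrane form the LINC complex, which joins the lamina to the cytoskeleton. Fibroblasts are known for a high content of A-type lamins, which give the nucleus its stiffness.

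Each probe is a 60-base oligonucleotide, and the positions below are those of the mouse build mm9 in the array files. No exon annotation of that build was used here. Stretches of the probes on which the results turn are printed 5′ to 3′, so that the measured part of each transcript can be seen. Lbr had 1 probe, at chr1:183745502-183745561 on the minus strand, of which bases 1 to 30 are shown. Of the 3 Lmna probes, 2 are shown, both on the minus strand. A_52_P137765 at chr3:88287262-88287321 is shown whole, and bases 1 to 30 are shown of A_65_P12904 at chr3:88285331-88285390.
Lbr A_55_P2865103: cacagtatctggacattaggtgcaagttgt
Lmna A_52_P137765: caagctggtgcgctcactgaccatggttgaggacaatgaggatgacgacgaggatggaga
Lmna A_65_P12904: tgcttgctttttctatattttatttagaca

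Probes of Sun2, Tmpo and Lmnb2 are shown as well. That of Sun2 was at chr15:79554574-79554633, the brighter one of Tmpo at chr10:90610500-90610559 and the more 3′ one of Lmnb2 at chr10:80364117-80364176, all on the minus strand. Bases 1 to 30 are given for Sun2 and Tmpo and bases 31 to 60 for Lmnb2, where capitals mark the polyadenylation hexamer AATAAA.
Sun2 A_55_P2021119: tacagccccctcgggcttgttttgtgctct
Tmpo A_55_P2817831: ataaatcagacttcacatatatgtaaggcc
Lmnb2 A_52_P426554: aacttttgtatactcaAATAAAcattgact
AATAAA or ATTAAA was present on the sense strand in 4 of the 30 probes, and in 13.4% of all 56605 probes.

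All 4 arrays lay on 1 slide, where the siControl pair held positions 1 and 2 and the siTIMP1 pair positions 3 and 4, so position and group cannot be told apart. The share of spots well above background was 45.9% to 52.1%, lowest on siTIMP1 replicate 2. The targeted gene Timp1 had processed signals of 53300 and 67600 in siControl and 1840 and 1490 in siTIMP1, which is 2.68% of the control level. Of 10 fibroblast markers, 9 had at least 1 probe well above background on all 4 arrays, and no Fap probe was so on any array. Their summed signals were 476400 and 428900 in siControl and 477400 and 483700 in siTIMP1. None of their 20 tested probes was called. Pdgfra, a receptor of platelet-derived growth factor, had 1050 and 898 against 587 and 506 on its brightest probe, without overlap (-0.88, SE 0.12, limma adjusted p = 0.0618, called under 4 of 13 alternatives), and -0.40 and -0.20 on the other probes. The collagen gene Col3a1 had 0.40 on its brightest probe and 0.28 and 1.27 on dim ones, and Col1a1 had tested probes from 0.06 to 0.13. The probe at 1.27 (SE 0.60, limma adjusted p = 0.331) had signals of 30.5 and 19.1 in siControl and 33.1 and 110 in siTIMP1.

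Among markers of other cell types, Cdh5, Kdr, Tek, Adipoq, Plin1, Krt1, Krt5, Cdh1, Adgre1 and Myod1 were well above background on no array, Myog on 1 and Pecam1 on 2. Acta1 was so on the 3 arrays where its spot was kept. Ptprc, Cd68, Csf1r, Krt10, Krt14 and Fabp4 were so on all 4 with at least 1 probe, with log2 fold changes from -0.29 to 0.35 and none called. For Ptprc this was only A_55_P2716276 of its 7 probes, and Cd68 and Fabp4 also had a probe too dim to be tested. Summed signals were 422 to 524 for the keratinocyte list, 1305 to 1456 for the macrophage list and 26.0 to 40.5 for the adipocyte list, with overlapping groups. The endothelial list had 17.7 and 17.1 in siControl and 24.2 and 24.4 in siTIMP1, and the skeletal muscle list, nearly all of it Acta1, had 1207 and 1130 against 701 and 690. These sums keep outlier spots, among them that of Acta1 on siControl replicate 2. The part of Pdgfra and of these lists in the results was not tested. Separate cultures are not named in the labels, so the p-values cover the spread between these samples alone, which may be technical. An exact permutation test of 2 arrays against 2 cannot go below p = 0.333, and tests therefore come from the limma fit across all probes.

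Lbr, which anchors B-type lamins and heterochromatin at the inner nuclear membrane, had the lowest fold change of the 10 genes. Its processed signals, which are spot intensities after detrending within the array, were 4810 and 3240 in siControl and 994 and 1010 in siTIMP1. Both siTIMP1 arrays lay well below both siControl arrays, and all 4 spots were well above background. On the normalised scale, which is log2 of the signal minus the array's 75th percentile, Lbr was at 4.42 ± 0.38 (SD, n = 2) in siControl and at 2.40 ± 0.01 (SD, n = 2) in siTIMP1. The log2 fold change was -2.03 (SE 0.18, 95% interval -2.49 to -1.57), so siTIMP1 kept 24.6% of the control level. Because Lbr was chosen for its fall on these arrays, this interval lacks its stated coverage and is no test. Of all 26015 tested probes, 104 had a lower fold change. Fewer cells that make Lbr and less Lbr RNA per cell cannot be told apart in such cultures.

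The siControl arrays differed from each other for Lbr by 0.54 on the log2 scale, more than they did for 90.3% of tested probes. Their median gap over all tested probes was 0.145. The siTIMP1 arrays differed for Lbr by 0.02, against a median gap of 0.118. Without siControl replicate 1, the brighter of the pair, the log2 fold change of Lbr was -1.76, and without siControl replicate 2 it was -2.30.

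**Figure D1:**
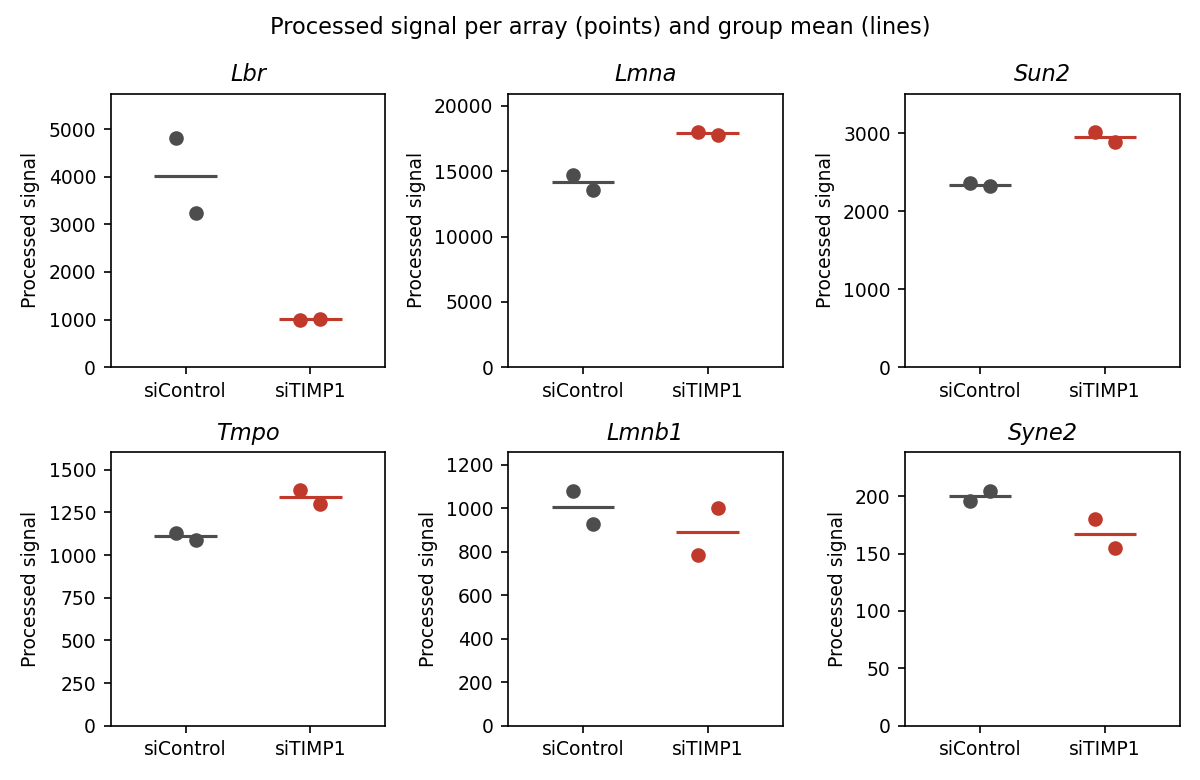
Processed signal (linear axis from 0) of 1 probe each of Lbr, Lmna (A_52_P137765), Sun2, Tmpo (A_55_P2817831), Lmnb1 and Syne2. Points are arrays and lines are group means of 2 arrays. The Lbr signals are 4810 and 3240 in siControl and 994 and 1010 in siTIMP1, while the Lmnb1 groups overlap.

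The other 9 members all had at least 1 tested probe, and 20 of their 29 probes were tested. Testing required a signal well above background on both arrays of siControl, of siTIMP1 or of both. Of the 20, 0 were higher and 0 were lower at a limma adjusted p of 0.05, where 0.0615% of all tested probes were higher and 0.627% were lower (0.688% in all). At an unadjusted limma p under 0.05, 5 had higher values (the 3 probes of Lmna, that of Sun2 and 1 of Tmpo) and 1 had lower values (Syne2). Among all tested probes, 10.6% were higher and 7.7% were lower at that unadjusted level. The groups did not overlap for 8 of the 20 with higher values in siTIMP1 and for 4 with lower values, beside 29.8% and 23.2% of all tested probes. Of the 20, 18 were well above background on all 4 arrays. The others, A_55_P2933114 (-0.12) and A_55_P2721762 (-0.23) of Sun1, passed the filter through siControl alone. A_55_P2933114 is among the 4, and the direction of these Sun1 probes carries no weight. The fold changes of these 20 probes had a median of -0.016, beside 0.0189 over all tested probes. Of the 20, 9 lay within the middle range of all probes, from -0.183 to 0.166 (25th to 75th percentile), 4 below it and 7 above it.

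**Figure D2:**
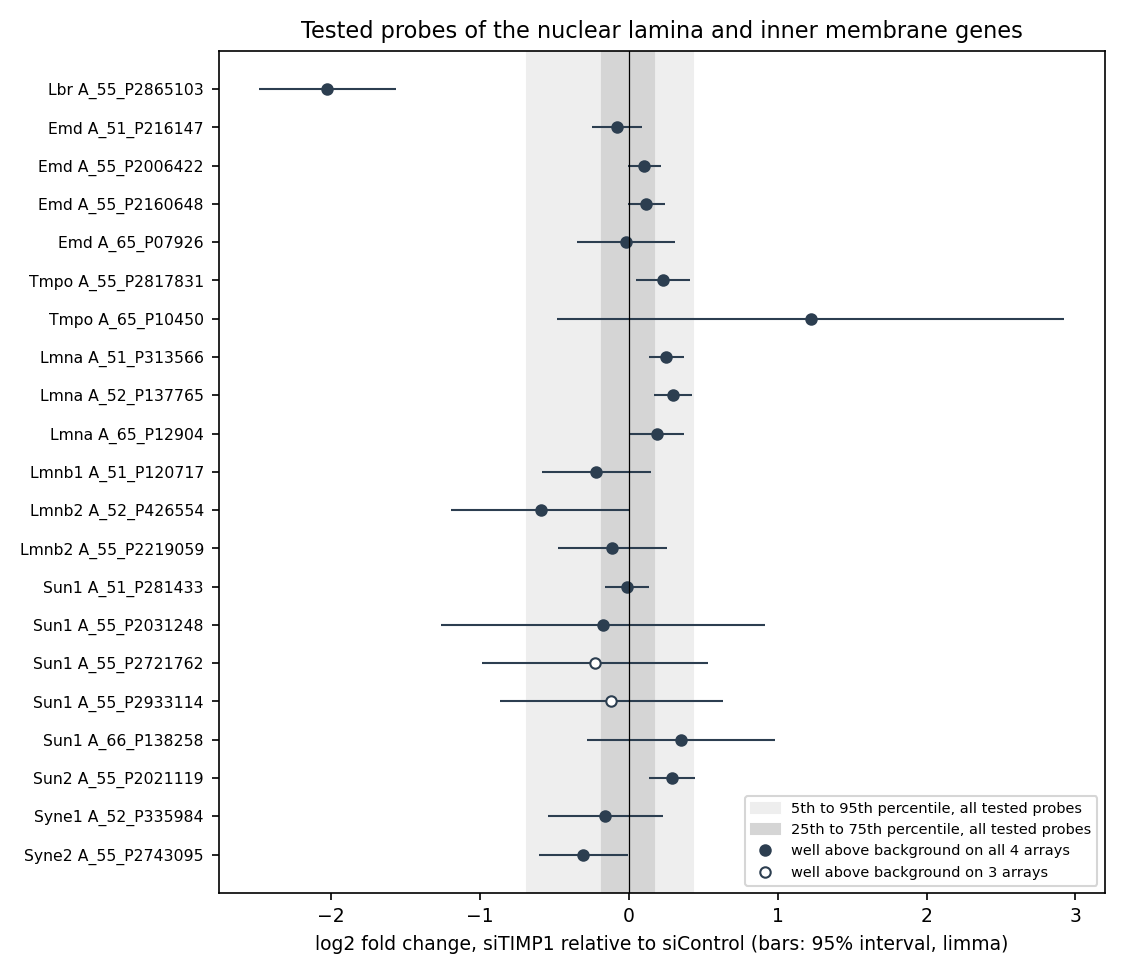
Log2 fold change of each tested probe of the 10 genes, siTIMP1 relative to siControl, with the 95% interval of the limma fit (n = 2 arrays per group). Shaded bands are percentiles of all tested probes, and open points mark probes well above background on 3 arrays. Lbr, chosen for its fall, stands at -2.03 with an interval that is no test, and the other 20 probes lie between -0.59 and 1.22.

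Among the A-type lamins, encoded by Lmna, all 3 probes had higher values with siTIMP1 and groups that did not overlap. A_52_P137765 had signals of 14700 and 13600 in siControl and 18000 and 17800 in siTIMP1. Its log2 fold change was 0.30 (SE 0.05, 95% interval 0.17 to 0.42, limma adjusted p = 0.0974). A_51_P313566 had 31200 and 29100 against 37700 and 36300, a log2 fold change of 0.25 (SE 0.05, adjusted p = 0.108). The probe furthest 3′, A_65_P12904, had 1690 and 1540 against 1860 and 1920, a log2 fold change of 0.19 (SE 0.07, adjusted p = 0.266). Lmna is known to give lamin A and lamin C from alternative 3′ ends. The intervals of the 3 probes overlapped, and a difference between them was not tested. All 3 stayed above 0 under 13 alternatives in processing or arrays left out. Without siControl replicate 1, both A_52_P137765 (0.34, limma adjusted p = 0.032) and A_51_P313566 (0.29, adjusted p = 0.0466) passed the threshold. That fit takes its spread from the siTIMP1 pair alone, and over all 26015 probes it called 483 higher and 840 lower, where the fit with all arrays called 16 and 163.

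A_51_P313566 was printed on 10 spots per array, which gives the spot-to-spot error within an array. After outlier spots were left out, 9 spots were kept on both siControl arrays and on siTIMP1 replicate 1, and 10 on siTIMP1 replicate 2. The SD between spots was from 0.0301 to 0.04 on the log2 scale. Spots ranged from 7.34 to 7.44 on siControl replicate 1 and from 7.28 to 7.38 on siControl replicate 2. They ranged from 7.59 to 7.71 on siTIMP1 replicate 1 and from 7.52 to 7.64 on siTIMP1 replicate 2. Every kept siTIMP1 spot was thus brighter than every kept siControl spot. Spots of 1 array share its RNA and are no replicates of the siRNA, so this shows the error of the spots and not of the groups.

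**Figure D3:**
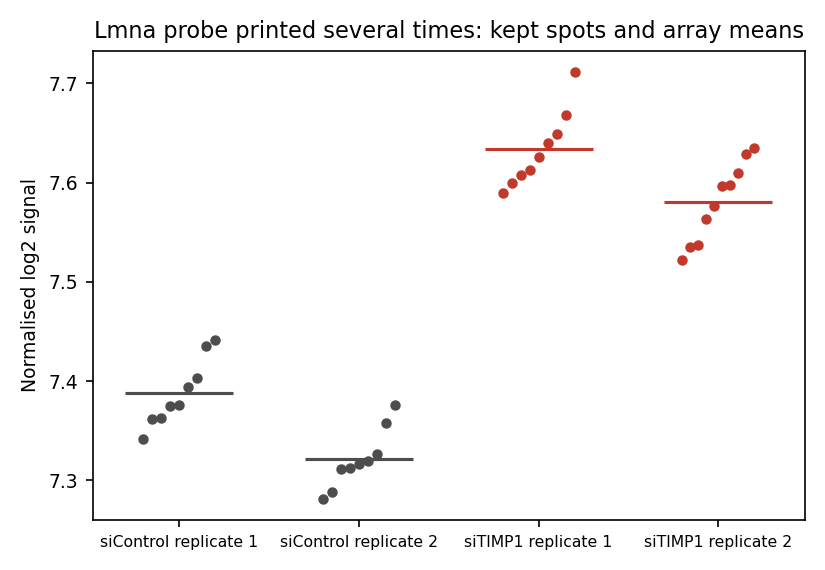
Normalised log2 signal of the kept spots of the Lmna probe A_51_P313566 on each array, with spots sorted by value and the array mean as a line. The axis does not start at 0. The siControl spots lie between 7.28 and 7.44 and the siTIMP1 spots between 7.52 and 7.71.

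The B-type lamins, which stay bound to the membrane through a farnesyl anchor, had values below 0 on each of their 3 probes, and none passed the test. A_55_P2219059 of Lmnb2 reached 0.02 when an array was left out. Lmnb1 had signals of 1080 and 928 in siControl and 786 and 1000 in siTIMP1, and the groups overlapped (log2 fold change -0.22, SE 0.14, limma adjusted p = 0.452). Lmnb2 had 129 and 174 against 86.5 and 122 on the probe with the AATAAA hexamer, a log2 fold change of -0.59 (SE 0.24, 95% interval -1.20 to 0.01, adjusted p = 0.277). The groups did not overlap on that probe, but siControl replicate 1 and siTIMP1 replicate 2 were close. The other Lmnb2 probe, 1428 bases away, had 237 and 192 against 188 and 220 and overlapping groups (-0.11, SE 0.14, adjusted p = 0.694).

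Of the LEM-domain proteins, which bind chromatin through BAF, Tmpo had higher values on both tested probes. A_55_P2817831 had 1130 and 1090 in siControl and 1380 and 1300 in siTIMP1, with no overlap (log2 fold change 0.23, SE 0.07, limma adjusted p = 0.206). A_65_P10450 had 34.8 and 27.0 in siControl and 36.3 and 150 in siTIMP1, so its value of 1.22 (SE 0.67, adjusted p = 0.383) came from siTIMP1 replicate 2. Without that array it was 0.20. The last Tmpo probe was not well above background on any array.

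Emd, whose product emerin binds lamins and BAF, had 4 tested probes in 2 pairs that differed in sign. The probes assigned to the Emd mRNA had 3540 and 3490 against 3300 and 3570 (-0.08, SE 0.07, limma adjusted p = 0.537, apart only after normalisation) and 254 and 202 against 234 and 227 (-0.02, SE 0.13, adjusted p = 0.946). The probes assigned to a predicted Emd transcript, A_55_P2006422 and A_55_P2160648, had values of 0.10 (SE 0.04, adjusted p = 0.289) and 0.12 (SE 0.05, adjusted p = 0.292). They started 3860 bases from the last mRNA probe and were nearly the same as each other, and they shared a run of 20 bases with a probe that has no gene symbol and that the files place on chromosome 17. Windows of 30 bases from these 3 probes are shown, with the 3 positions that differ in capitals.
Emd A_55_P2006422: actagtgtaactCcttcatgCaataaacTg
Emd A_55_P2160648: actagtgtaactCcttcatgAaataaacTg
Unnamed A_55_P2073975: actagtgtaactTcttcatgCaataaacCg
Counted from the window's 5′ end, A_55_P2160648 differed from A_55_P2006422 by C21A, and the unnamed probe differed from it by C13T and T29C. The unnamed probe had 21100 and 20300 in siControl and 22900 and 25700 in siTIMP1 (0.18, SE 0.07, adjusted p = 0.253). The pair of probes for the predicted transcript may thus take signal from near-identical copies, and its values are uncertain as a measure of Emd.

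In the LINC complex, Sun2, which spans the inner membrane and binds nesprins, had the clearest difference. Its probe had 2370 and 2320 in siControl and 3020 and 2890 in siTIMP1. The siControl arrays were nearly equal and both siTIMP1 arrays were brighter, with a log2 fold change of 0.29 (SE 0.06, 95% interval 0.14 to 0.44, limma adjusted p = 0.125). Its paralogue Sun1 had 8 probes, of which 5 were tested. The brightest, A_51_P281433, had 2530 and 2460 in siControl and 2520 and 2580 in siTIMP1, a log2 fold change of -0.01 with a 95% interval of -0.16 to 0.14 (adjusted p = 0.921). The other tested Sun1 probes were dim, with signals down to 10.6 and log2 fold changes from -0.23 to 0.35, with adjusted p-values from 0.480 to 0.849. A difference between Sun1 and Sun2 was not tested.

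The nesprins, giant spectrin-repeat proteins that reach from the nuclear envelope to actin, had 1 tested probe each. Syne1 had 291 and 220 in siControl and 244 and 223 in siTIMP1, with overlapping groups (-0.16, SE 0.15, limma adjusted p = 0.592). Its other 3 probes, with signals from 1.46 to 2.94, were not well above background on any array. Syne2 had 196 and 205 in siControl and 180 and 155 in siTIMP1, without overlap (-0.31, SE 0.12, 95% interval -0.61 to -0.01, adjusted p = 0.266). Its other 2 probes, and 3 of the Sun1 probes, stood above background on too few arrays to be tested, so that 9 probes of the 9 genes were left out.

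Genes with related roles were taken from lists written with earlier results of these data known, and are described by probe. Among 16 further genes of inner membrane and LINC complex proteins and their partners, 22 probes were tested and none passed. Their median log2 fold change was -0.0112, with 10 above and 12 below 0. Tor1aip2 and Tor1aip1, which encode partners of torsins, had values of 0.33 and 0.38 on 1 probe each and of 0.13 and 0.05 on another. The LEM-domain gene Lemd2 had 0.24 (limma adjusted p = 0.157). The enzymes that farnesylate and trim lamins had 7 tested probes for 5 genes, none of which passed, with a median of 0.125. The protease gene Rce1 had 0.29 and the farnesyltransferase subunit gene Fnta 0.29. Zmpste24, the protease that matures prelamin A, had -0.15 on its brighter probe and 0.07 on the other.

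Nuclear pore genes had 51 tested probes for 27 genes, and none passed (median 0.0605, 32 above and 19 below 0). Tpr, which forms the basket of the pore, had the smallest p. Its 3 probes had values of -0.67 (limma adjusted p = 0.0563), -0.34 and -0.39. That of smallest p passed under 6 of 13 alternatives, among them quantile normalization (-0.71, adjusted p = 0.0492), and its limma adjusted p ranged from 0.0113 to 0.382. Nup88 had -0.44 and -0.50, and the 2 Nup50 probes disagreed in sign, at 0.40 and -0.64.

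LBR is known to bind heterochromatin protein 1 and to be phosphorylated by SR protein kinases. The list of 3 HP1 genes and 2 of these kinases had 14 tested probes (median -0.0376, 5 above and 9 below 0). At a limma adjusted p under 0.05, 1 was called lower, where 0.627% of all tested probes were. This was Cbx1, which encodes HP1 beta. It had signals of 1250 and 1280 in siControl and 705 and 721 in siTIMP1, with a tight pair in each group, and fell by 0.87 on the log2 scale (SE 0.07, limma adjusted p = 0.0262). Its other tested probes had values of -0.52 (adjusted p = 0.0927), -0.59 (adjusted p = 0.322) and -0.22 (adjusted p = 0.725). The call was lost without a variance trend (-0.87, limma adjusted p = 0.134) and without siTIMP1 replicate 1 (-0.86, 0.193) or replicate 2 (-0.89, 0.223), in fits that called no probe of the array, that of Timp1 included. Cbx5, which encodes HP1 alpha, had 0.30 and -0.05 on its tested probes, Cbx3, which encodes HP1 gamma, had -0.15 and -0.02, and the kinase gene Srpk2 had values from -0.03 to 0.19, none of them called.

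**Figure D4:**
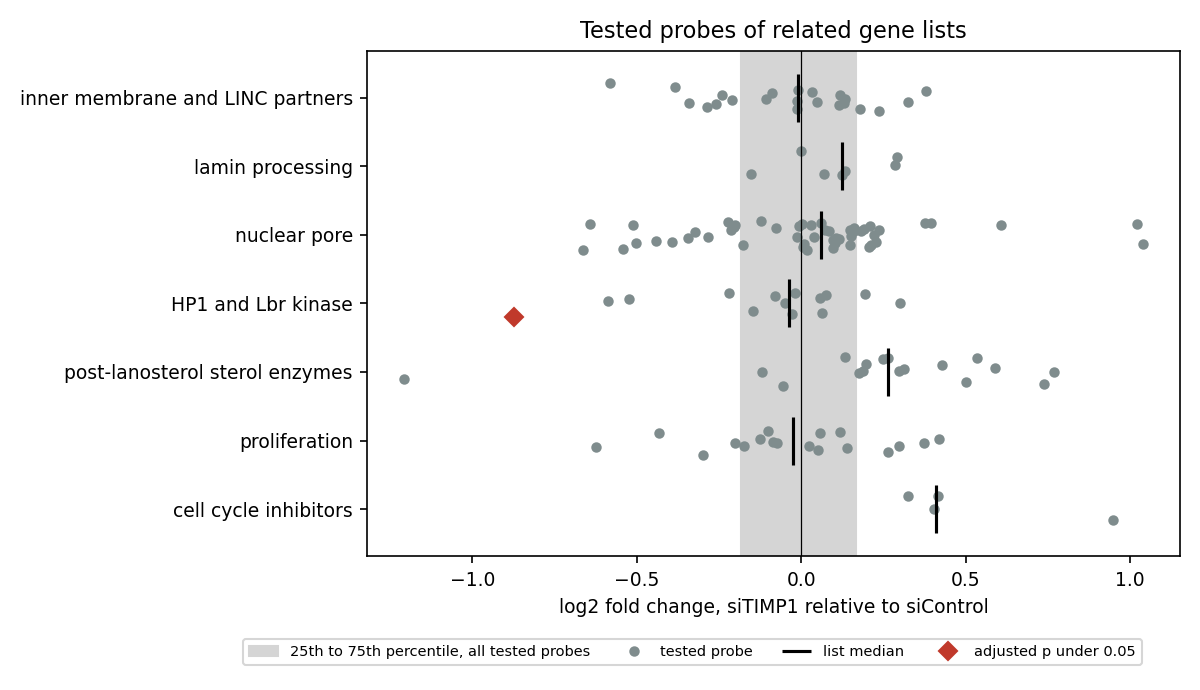
Log2 fold change of each tested probe in 7 lists of related genes, siTIMP1 relative to siControl, with the list median as a line and the 25th to 75th percentile of all tested probes shaded. The diamond is the Cbx1 probe at -0.87, the single probe of these lists with a limma adjusted p under 0.05.

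LBR and TM7SF2 are the sterol C14 reductases of cholesterol synthesis. Enzymes acting after lanosterol had 17 tested probes for 9 genes, none called, with a median of 0.264 and 14 probes above 0. The siControl arrays stood apart from each other here, with summed signals of 54570 and 36890, beside 56130 and 56680 in siTIMP1. Tm7sf2, chosen after its values were seen, had 2220 and 1010 in siControl and 2130 and 2340 in siTIMP1 on its brighter probe (0.53, SE 0.35, limma adjusted p = 0.457). Replicate 1 was the brighter siControl array for Lbr as well. The part of this difference between siControl arrays in the Lbr values was not tested. Hsd17b7 had 0.77, 0.59 and 0.74 on its probes and Dhcr7 had 0.19. Msmo1 had 0.50 and 0.30, and -1.21 on its dimmest probe, whose siControl signals were 189 and 16.8. Without siControl replicate 1, all 3 Hsd17b7 probes passed, with A_51_P250934 at 1.08 and A_55_P1997936 at 0.84, as did the 2 brighter Msmo1 probes at 0.73 and 0.56, in the fit with 1 siControl array that called 483 probes higher and 840 lower. Without siControl replicate 2, the dimmest Msmo1 probe passed with a value of -2.94, in a fit that called 99 probes higher and 293 lower.

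Lamin B1 and LBR are known to be lost when cells stop dividing in senescence. Proliferation genes had 18 tested probes for 11 genes with none called, 9 above and 9 below 0, and a median of -0.0257. Rrm2, a subunit of ribonucleotide reductase, had -0.62 (limma adjusted p = 0.0726), the replication helicase gene Mcm2 had -0.43 (0.104) and Pcna, the sliding clamp, had 0.14 (0.285). With no filter Rrm2 passed, in a fit that called 124 probes higher and 334 lower. The fit as reported called 16 and 163. The Rrm2 value was -0.51 without siControl replicate 1 and -0.74 without replicate 2, in fits left with 1 siControl array. The list of cell cycle inhibitors had 4 genes and 9 probes, and its 4 tested probes came from 2 genes. Cdkn2a and Cdkn2b were well above background on no array. The tested probes were all above 0 and none was called (limma adjusted p from 0.159 to 0.505). Cdkn1a had 0.40 on its brightest probe, and Cdkn1b had 0.33. The other Cdkn1a probes, at 0.95 and 0.42, were dim, with signals from 10.5 to 24.8. With another background correction (normexp) the 0.95 became 0.21. In fits left with 1 siControl array, the brightest Cdkn1a probe had 0.63 without siControl replicate 2, and Cdkn1b had 0.49 without replicate 1. The summed signals of proliferation genes were 21410 and 17800 in siControl and 18460 and 18570 in siTIMP1, and their part in the Lbr values was not tested.

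The genes whose values over the 4 arrays were closest to those of Lbr were found by the distance between log2 values minus the siControl mean. They were S100pbp (distance 0.275), Ltb4r2 (0.353), Rgsl1 (0.398), Mtdh (0.439) and Olfr1368 (0.442), with log2 fold changes from -2.20 to -1.85. S100pbp and Ltb4r2 shared with Lbr a siControl replicate 1 above replicate 2, by 0.275 and 0.346 on either side of their mean, where Lbr had 0.269. In Rgsl1, Mtdh and Olfr1368, siControl replicate 1 lay at 0.084, -0.026 and 0.01 from that mean. The genes were picked for a small distance over these same 4 arrays, so their likeness to Lbr is a description only.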

How the data were processed

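Total RNA of 4 samples was hybridised to 1-colour Agilent arrays. Per-spot intensity was deposited as scanner output (the submitters' processing notes name Agilent Feature Extraction 11.5.1.1), and its processed intensity came with spatial and multiplicative detrending on, the separate background correction off and surrogate values in use, per the file headers. Surrogates stand in for the dimmest signals, so values near background have no order. The authors' value table of log2 values followed the log2 processed signal minus 1 constant per array, from 6.90 to 6.96. Its scale is thus known, while the statistic behind the constants was not identified. Its column medians were -3.94, -3.86, -3.99 and -3.91.

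Each processed signal was put on the log2 scale, and the 75th percentile of all non-control spots of that array was subtracted. Control spots and outlier spots (136 to 250 per array) were left out, and spots of 1 probe were averaged. No spot was saturated. The test took probes with values on 4 arrays that stood well above background throughout siControl or throughout siTIMP1, 26015 of 56605. Groups, taken from sample titles, were compared by lmFit and eBayes (trend = TRUE) of limma 3.58.1 under R 4.3.3. P-values were adjusted by Benjamini-Hochberg over every tested probe, and the threshold was 0.05. The number of arrays limits the precision. All adjusted p-values in the text are from this fit unless another setting is named. Replicate numbers follow accession order. Members were matched by the gene name in the files, and 26 of their 30 probes have a RefSeq accession in the reference gene table.

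The members and the gene lists were chosen with earlier results of these data known. From each list, called genes and up to 3 others of smallest p are named, together with the 5 genes closest to Lbr over the arrays. Alternatives covered the background correction, the normalization, the filter, the variance model, outlier spots, the authors' value table, the threshold and each array left out. The fit was also run on simulated arrays whose noise was drawn from its own variance estimates, so that run does not test the variance model on these arrays. Figures were drawn with matplotlib 3.10.9. The sequence of 1 Lmna probe is not reported here.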

Additional observations from a re-analysis of the deposited data

Results flagged for a closer look

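The Syne2 probe A_52_P601950 was not tested, because it was not well above background on both arrays of any group, yet it had a processed signal of 75.8 on siTIMP1 replicate 1, where it was well above background. The signals on the other arrays were 1.70 and 3.15 in siControl and 2.75 on siTIMP1 replicate 2. The probe has 1 spot per array, and the other Syne2 probes had 180 and 155 (A_55_P2743095) and 8.01 and 3.13 (A_55_P2720605) in siTIMP1.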

How the results depend on the processing

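The log2 fold change of Lbr, -2.03 as reported, ranged from -2.07 to -1.96 with other processing and from -2.30 to -1.76 when 1 array was left out. Among the other members, the count of probes higher was 0 in the fit as reported, 0 to 2 when 1 array was left out and 1 at an adjusted p under 0.1, and the count lower was 0 throughout. Of 258 values of their single probes with other settings, 256 kept their side of the threshold and 2 gained a call. Of these 256, 11 changed sign without a call in either fit. Over all probes, the 16 higher and 163 lower became 124 and 334 with no filter, 0 and 0 without a variance trend, 61 and 249 with robust eBayes, 181 and 384 at an adjusted p under 0.1, and from 0 to 483 and from 0 to 840 when 1 array was left out. Both counts were 0 without siTIMP1 replicate 1 and without replicate 2, where limma takes the spread from the siControl pair and treats the single remaining array as equally variable. For these shifts the cause was not tested. Values for related genes were recomputed under the same alternatives after the data were seen. At an unadjusted limma p under 0.05 there were 4216 probes without a trend, 2920 without siTIMP1 replicate 1 and 2692 without replicate 2. A block for slides was not run with 1 slide in use. No paired analysis was possible because siControl and siTIMP1 titles carry different numbers throughout. Probes near background, such as most of Sun1 and Syne1, limit what can be seen of those genes.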
